A study of Mus musculus with 4 samples.

Results

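Metallothioneins are small cysteine-rich proteins that bind zinc and copper, and cadmium when it is present, and that also react with oxidants. Mt1 and Mt2 are the members made in most tissues, and the kidney tubule is one of the sites where they are best known. Their transcription is known to rise with metals through the zinc-sensing factor MTF1, with glucocorticoids, with interleukin 6 signalling through STAT3 and with oxidative stress. Mt1 and Mt2 were taken as the 2 genes with these symbols among the 32285 genes listed for every section, and each symbol occurred once.

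The data were 10x Visium spatial transcriptomes of 4 left kidney sections, 2 normal and 2 ischemic, each cut at 10 µm. All mice were wild-type C57BL/6J males aged 7 to 8 weeks. The ischemic kidneys were taken 24 h after a 30 min clamp on both renal pedicles, and the normal kidneys carry the label normal ctrl, with no sham operation named. The study describes 2 mice per condition with 2 technical replicates each. Which mouse a section came from is unstated, so p-values measure the spread between sections, which may be technical. Each Visium spot counts captured molecules by their unique molecular identifiers (UMIs) and covers several cells, so fewer cells of a type and less RNA per cell cannot be told apart. The sections held between 25957128 and 44528078 UMIs over 2401 to 2682 tissue spots, 10312 spots in all.

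Mt1 (ENSMUSG00000031765) and Mt2 (ENSMUSG00000031762) lie side by side on chromosome 8 of GRCm38, the assembly also named mm10. In GENCODE's annotation Mt2 runs from 94172664 to 94173568 and Mt1 from 94179082 to 94180327, both on the forward strand, with 5513 bases between them. Each has 3 exons and codes for 61 residues in its principal transcript. Mt3, known mainly from the brain, and Mt4, known from stratified epithelium, lie upstream on the same strand, from 94152607 to 94154146 and from 94137197 to 94139031. The longest run of bases shared by the principal transcripts of Mt1 and Mt2 was 20, and no 25-base word was common to both. Mt1 and Mt3 shared a run of 27 bases.

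The sequences before the RefSeq starts of both genes are shown because both genes rose in every zone. They cover the 250 bases before the start in GRCm38.p6, chr8:94178839-94179088 for Mt1 and chr8:94172368-94172617 for Mt2, both on the forward strand. Capitals mark matches to the core of the metal response element bound by MTF1, searched as TGCACNC and TGCGCNC on both strands.
Mt1: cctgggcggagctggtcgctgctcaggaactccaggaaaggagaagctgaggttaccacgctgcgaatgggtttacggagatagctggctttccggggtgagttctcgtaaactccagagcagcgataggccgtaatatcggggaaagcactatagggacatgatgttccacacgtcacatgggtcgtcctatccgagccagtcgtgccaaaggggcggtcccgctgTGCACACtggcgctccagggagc
Mt2: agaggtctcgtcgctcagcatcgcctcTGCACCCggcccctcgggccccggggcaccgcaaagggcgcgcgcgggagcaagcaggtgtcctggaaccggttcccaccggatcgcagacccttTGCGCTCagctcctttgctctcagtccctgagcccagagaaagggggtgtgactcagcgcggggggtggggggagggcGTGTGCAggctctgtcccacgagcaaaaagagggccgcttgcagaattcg

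This window held 1 match for Mt1 and 3 for Mt2, and 21.5% of 32595 windows of the same length held at least 1. In both genes the letters TATAAA lie after the RefSeq start rather than before it, at base 122 for Mt1 and base 136 for Mt2 counted from the start as base 1. The search was therefore extended to the 250 bases after the start as well. In 500 bases Mt1 held 5 matches and Mt2 held 7, while Mt3 held 3 and Mt4 held 1. Of all windows of that length, 38% held a match, 0.494% held at least 5 and 0.0491% held at least 7. The 30-base stretch after each start with the most matches is shown next, at chr8:94179089-94179118 for Mt1 and chr8:94172672-94172701 for Mt2. Another place in Mt1 held as many, at bases 85 to 91 on the reverse and 99 to 105 on the forward strand. The stretch nearer the start is shown. In it the matches of Mt1 run forward, and the capitals of Mt2 are matches on the reverse strand.
Mt1: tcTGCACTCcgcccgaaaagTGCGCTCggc
Mt2: gggcGTGTGCAggcggcgggggcGCGTGCA

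The antioxidant response element core TGACNNNGC matched once in each 500-base window, at bases 53 to 61 after the start of Mt1 and 79 to 71 before that of Mt2, against 19.3% of all windows with a match. The letters TTCNNNGAA, the core of a STAT site, had no match in either window, and 12.9% of all windows held one. The hypoxia response element core ACGTG had 1 match in the window of Mt1 and none in that of Mt2, against 29.2% of all windows. These are matches of letters and no binding was measured.

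To ask how far both genes changed in the kidney as a whole, UMIs were summed over all spots of a section. Mt1 rose from 550 and 820 counts per 1000000 UMIs (CPM) in the normal sections to 11777 and 13177 CPM in the ischemic sections. Mt2 rose from 35.5 and 52.4 CPM to 1825 and 2279 CPM. The lowest ischemic section lay far above the highest normal section for both genes, and the ratios of single section pairs ran from 14.4 to 24.0 for Mt1 and from 34.8 to 64.2 for Mt2. In edgeR's quasi-likelihood test on these sums, the log2 fold change of Mt1 was 3.93 (SE 0.25, adjusted p = 2.09e-06) and that of Mt2 was 5.29 (SE 0.21, adjusted p = 1.87e-07). These are 15.3-fold and 39.2-fold changes. Both genes were called in a comparison where 60.6% of 15305 genes were called, 31% higher and 29.7% lower. With library totals as the scale, 5750 genes were higher and 2829 lower, against 4737 and 4542 here.

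By number of UMIs, Mt1 moved from places 269 and 187 among all genes of the normal sections to places 5 and 4 in the ischemic sections. Mt2 moved from places 3197 and 2548 to 60 and 42. Together they made up 0.0585% and 0.0873% of all UMIs without ischemia and 1.36% and 1.55% after it. Mt1 was already widespread in the normal kidney, where 95.0% and 89.4% of spots held at least 1 UMI of it, against 99.9% and 99.1% in the ischemic sections. Mt2 went from 38.8% and 33.9% of spots to 98.5% and 97.6%. Spots were also thinned to 2000 UMIs, which left out the 48 and 150 normal and 58 and 105 ischemic spots with fewer. Of the spots that remained, Mt2 was found in 7.87% and 10.6% of normal and 87.1% and 90.9% of ischemic ones, so the difference was present at equal depth.

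The injury markers Havcr1 and Lcn2 served to check the labels. Havcr1, a tubular injury receptor also named KIM-1, went from 0.966 and 2.13 CPM to 1408 and 1413 CPM. Lcn2, which codes for the iron-carrier binding protein NGAL, went from 4.92 and 7.95 CPM to 3056 and 3626 CPM. Both went in the direction the labels give.

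The other family members rose too. Mt3 went from 4.40 and 4.77 CPM to 34.0 and 34.7 CPM (log2 fold change 2.62, SE 0.11, adjusted p = 2.18e-07 by edgeR). Mt4 had no UMI in either normal section, which allows up to 0.0674 and 0.108 CPM there, and 85 and 106 UMIs in the ischemic sections, 2.74 and 4.08 CPM. Thus 4 of 4 family members rose, where 31% of all genes tested were higher, and 2 of the 4 are Mt1 and Mt2 themselves. The longest run of bases that Mt4 shared with another member was 18.

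**Figure D1:**
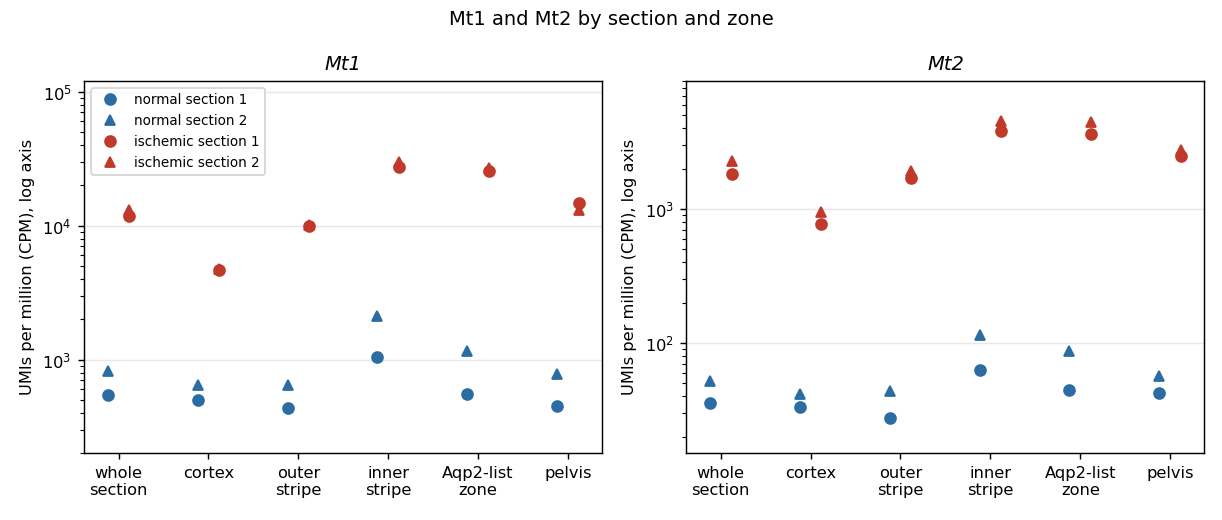
Counts per 1000000 UMIs (CPM) of Mt1 (left) and Mt2 (right) in each section, over the whole section and in each zone, on log axes that differ between the panels. Blue marks are the normal and red marks the ischemic sections, with circles for section 1 and triangles for section 2, and within every zone both red marks lie above both blue marks.

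To place both genes within the kidney, spots were sorted into zones by marker genes, read from the spot together with as many as 6 neighbours. The cortex was marked by proximal and distal convoluted tubule transporters such as Slc34a1, the outer stripe by genes of the straight proximal tubule such as Slc7a13, and the inner stripe by thick ascending limb genes such as Umod and Slc12a1. Another list held Slc14a2, Akr1b3, Cryab, Aqp2 and Fxyd4, genes known from the inner medulla, and the last held urothelial genes of the pelvis. Genes of the Slc14a2 list changed in different directions in its spots, so the name inner medulla was in doubt for the ischemic sections. The water channel gene Aqp2 stood at 2726 and 2995 CPM in these spots of normal kidneys and at 522 and 1085 CPM in those of ischemic kidneys, and Akr1b3 at 1996 and 1398 against 134 and 194 CPM. Slc14a2 went the other way, from 96.6 and 382 CPM in normal to 750 and 665 CPM in ischemic spots of the list. In the ischemic inner stripe it stood at 664 and 548 CPM, against 39.9 and 129 CPM in the normal one. The spots of this list are therefore called the Aqp2-list zone. The thick ascending limb genes of the inner stripe list summed to 2789 and 5538 CPM in this zone against 9955 and 14606 CPM in the inner stripe without ischemia. After ischemia they stood at 5479 and 5247 CPM against 7181 and 7194 CPM, so by this sum the zone lay closer to the inner stripe. Umod made up most of the sum, at 5229 and 4986 CPM in the ischemic zone. Umod and Ptger3 came closer in this way, but for Slc12a1 and Cldn10 the ratios of zone to inner stripe overlapped between conditions. Slc12a1 stood at 247 and 935 CPM against 1161 and 2190 CPM without ischemia. After ischemia it stood at 58.7 and 66.1 CPM against 200 and 181 CPM. Cryab, a small heat shock protein gene of the list, stood at 5847 and 5862 CPM in the ischemic outer stripe, above its 2261 and 1704 CPM in the Aqp2-list zone. Normal spots of this zone also held 3754 and 599 CPM of 5 adipocyte genes, against 0.762 and 1.71 CPM after ischemia. The part of these differences in the results for that zone was not tested. The outer stripe list also fell in its own zone, from 3127 and 3023 CPM to 463 and 489 CPM, though it stayed highest there. Of its genes, Slc7a13 fell from 803 and 829 CPM to 26.6 and 29.3 CPM. After ischemia Atp11a was no higher there (166 and 173 CPM) than in the inner stripe (200 and 193 CPM). The cortex list fell in its zone from 4815 and 4994 CPM to 1187 and 1207 CPM. The pelvis list fell in its zone from 5215 and 6336 CPM to 766 and 1116 CPM. The inner stripe list was lower in its own zone as well, by the sums given above. Whether these zones hold the same tissue in both conditions was not tested.

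In the normal kidney both genes were highest in the inner stripe. Mt1 stood at 502 and 647 CPM in the cortex, 439 and 649 CPM in the outer stripe, 1053 and 2111 CPM in the inner stripe, 558 and 1170 CPM in the Aqp2-list zone and 451 and 781 CPM in the pelvis. Mt2 stood at 33.1 and 41.3 CPM in the cortex, 27.4 and 44.1 CPM in the outer stripe, 63.3 and 115 CPM in the inner stripe, 44.3 and 86.7 CPM in the Aqp2-list zone and 42.1 and 56.8 CPM in the pelvis. Normal section 2 was higher than normal section 1 in every zone for both genes. Within each section the inner stripe led the other zones for both.

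Zones were compared within sections by an edgeR model that kept the section as a block. The inner stripe was above the cortex by 1.13 on the log2 scale for Mt1 (SE 0.11, adjusted p = 1.81e-07) and by 0.95 for Mt2 (SE 0.11, adjusted p = 1.26e-06), where 29.2% of 14174 genes were called. The outer stripe could not be told from the cortex, at log2 differences of 0.050 for Mt1 (SE 0.11, adjusted p = 0.81) and 0.058 for Mt2 (SE 0.11, adjusted p = 0.77), with 22.8% of genes called. Both of these small values change sign under 4 alternatives, library totals among them, and without normal section 2. The Aqp2-list zone was above the cortex by 0.099 for Mt1 (SE 0.11, adjusted p = 0.53) and 0.37 for Mt2 (SE 0.13, adjusted p = 0.031), with 40.2% of genes called. The call of Mt2 was lost in 7 of 13 alternatives. It was lost without normal section 2, at 0.077, and without either ischemic section, at 0.36 and 0.35. It was also lost without boundary spots (0.088), with zones without neighbours (0.24), without the filter on low counts (0.29) and without the section block (0.40). The Aqp2-list zone lay below the inner stripe for both genes, by log2 differences of -1.03 (adjusted p = 2.94e-06) and -0.58 (adjusted p = 0.0029) in edgeR.

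In the ischemic kidney the levels were higher in every zone and more unequal. Mt1 reached 4677 and 4769 CPM in the cortex, 9881 and 10098 CPM in the outer stripe, 27290 and 29795 CPM in the inner stripe, 25680 and 26796 CPM in the Aqp2-list zone and 14740 and 13092 CPM in the pelvis. Mt2 reached 767 and 942 CPM, 1714 and 1919 CPM, 3835 and 4524 CPM, 3635 and 4456 CPM, and 2490 and 2742 CPM in the same zones. In the inner stripe, Mt1 and Mt2 together made up 3.11% and 3.43% of all UMIs. The order from cortex through outer stripe and pelvis to inner stripe was the same for both genes and in both sections.

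The outer stripe now stood above the cortex, by 1.05 for Mt1 (SE 0.11, adjusted p = 3.74e-07) and 1.07 for Mt2 (SE 0.10, adjusted p = 5.86e-08), with 36.2% of genes called. The inner stripe was above the cortex by 2.23 for Mt1 (SE 0.12, adjusted p = 5.59e-12) and 1.92 for Mt2 (SE 0.10, adjusted p = 5.66e-12), with 49.5% called. The Aqp2-list zone was above it by 2.10 and 1.87 (adjusted p = 1.70e-11 and 1.23e-11 by edgeR), with 45.6% called. It did not differ from the inner stripe beyond the spread, at -0.13 for Mt1 (SE 0.11, adjusted p = 0.94) and -0.056 for Mt2 (SE 0.10, adjusted p = 0.99). The pelvis did not differ from the outer stripe beyond the spread, at 0.16 for Mt1 (SE 0.11, adjusted p = 0.32) and 0.21 for Mt2 (SE 0.10, adjusted p = 0.13).

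**Figure D2:**
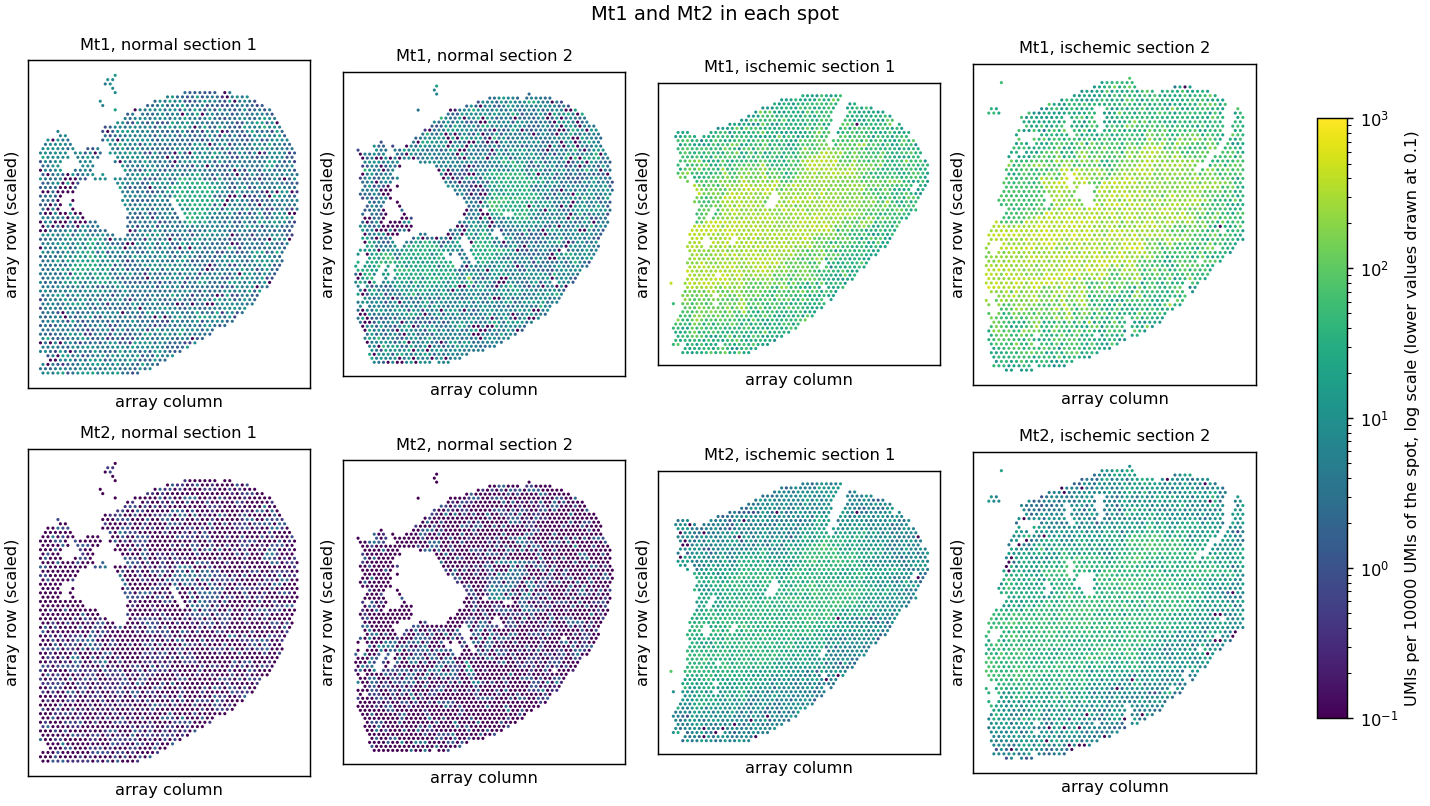
Each point is a spot with at least 500 UMIs at its place on the array, coloured on a log scale by UMIs of Mt1 (top) or Mt2 (bottom) per 10000 UMIs of the spot. In the ischemic sections the brightest spots lie together inside the section, and the outer rim is darker.

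The rise with ischemia was then tested zone by zone, with a separate edgeR fit for each. In the cortex the log2 fold change was 2.85 for Mt1 (SE 0.14, adjusted p = 1.18e-09) and 4.33 for Mt2 (SE 0.14, adjusted p = 2.17e-11), with 49.8% of genes called. In the outer stripe it was 3.85 for Mt1 (SE 0.19) and 5.33 for Mt2 (SE 0.17), with 67.4% called. In the inner stripe it was 3.92 for Mt1 (SE 0.34) and 5.29 for Mt2 (SE 0.29), with 43.2% called. In the Aqp2-list zone it was 4.79 and 5.80, with 27.4% called (4.66 and 5.73 without adipocyte-rich spots), and in the pelvis 4.43 and 5.64, with 25.3% called. Adjusted p-values by edgeR in these 4 zones ran up to 1.34e-04. The pelvis is the least certain zone, since 28.3% and 28.5% of its ischemic spots kept that zone when neighbours were left out. With zones set without neighbours, its log2 fold changes were 3.79 for Mt1 and 5.03 for Mt2.

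The difference between the zone changes was tested as an interaction in the model with the section as a block. Relative to the cortex, the change with ischemia was larger in the outer stripe by 1.00 for Mt1 (SE 0.16, adjusted p = 1.10e-04) and 1.01 for Mt2 (SE 0.14, adjusted p = 4.47e-05), with 21.5% of genes called. In the inner stripe it was larger by 1.10 for Mt1 (SE 0.16, adjusted p = 3.37e-05) and 0.98 for Mt2 (SE 0.15, adjusted p = 5.46e-05), with 19% called. In the Aqp2-list zone it was larger by 2.00 for Mt1 (SE 0.16) and 1.5 for Mt2 (SE 0.16), with 13% called and adjusted p-values of 9.74e-08 and 3.37e-06 by edgeR. On a linear scale the rise in the outer and inner stripes was about 2.00-fold and 2.14-fold that of the cortex for Mt1, and 2.01-fold and 1.97-fold for Mt2.

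**Figure D3:**
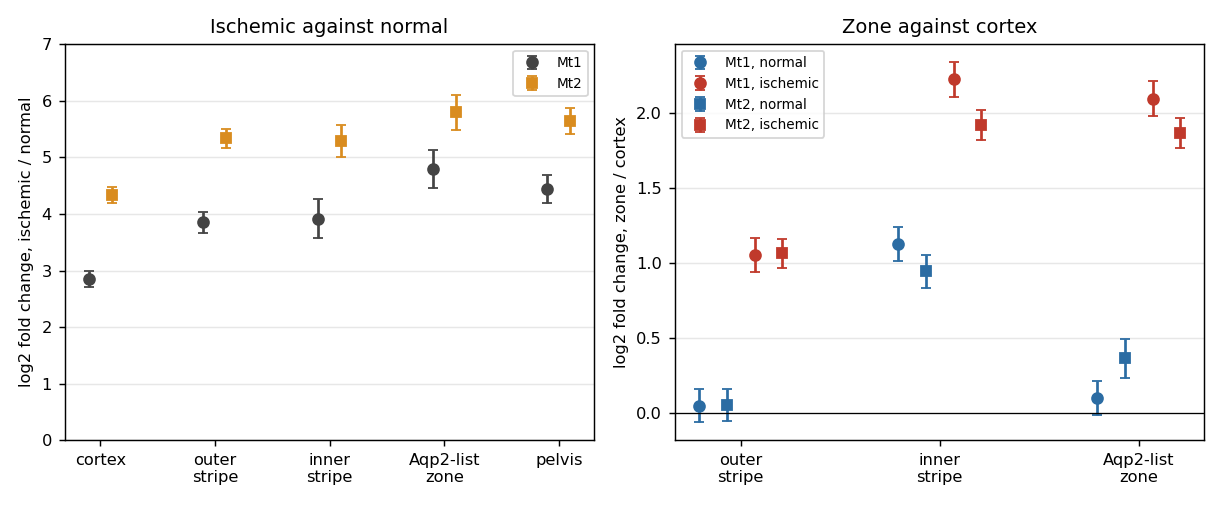
Left, log2 fold change of ischemic against normal sections in each zone for Mt1 (circles) and Mt2 (squares). Right, log2 fold change of a zone against the cortex in normal (blue) and ischemic (red) sections, with bars of 1 standard error in both panels and n = 2 sections per condition. The outer stripe sits near 0 in blue and near 1.05 in red.

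Mt3 followed another pattern. In normal sections it was highest in the inner stripe, at 12.6 and 17.2 CPM against 2.31 and 3.21 CPM in the cortex and 4.18 and 4.01 CPM in the outer stripe. In ischemic sections it was highest in the outer stripe, at 54.8 and 57.1 CPM, with 35.6 and 31.4 CPM in the inner stripe and 13.4 and 18 CPM in the cortex. Its inner stripe to cortex difference therefore shrank, by an interaction of -1.45 on the log2 scale (SE 0.33, adjusted p = 0.0037 by edgeR), while those of Mt1 and Mt2 grew. In the outer stripe its interaction of 1.04 (SE 0.33, adjusted p = 0.030) had the same sign as those of Mt1 and Mt2. Of the Mt4 UMIs in the ischemic sections, 54 of 85 and 76 of 106 lay in the outer stripe, which held 25.9% and 26.1% of spots. Of the UMIs of all genes, 10209643 of 31053530 and 8676377 of 25957128 lay there, a larger share than that of spots. The level of Mt4 in the outer stripe was 5.29 and 8.76 CPM, against 9.69 and 5.55 CPM in the pelvis from 12 and 7 UMIs. The pelvis did not differ from the outer stripe beyond the spread (-0.18, SE 0.46, adjusted p = 0.82 by edgeR). In the ischemic cortex Mt4 stood at 0.398 and 0.539 CPM.

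Mt2 made up a larger part of the pair after ischemia. Of all Mt1 and Mt2 UMIs, Mt2 took 6.07% (95% Clopper-Pearson interval 5.78 to 6.37) and 6.01% (5.71 to 6.31) without ischemia. It took 13.4% (13.3 to 13.5) and 14.7% (14.6 to 14.9) in the ischemic sections, where the intervals cover counting error only. The 2 conditions did not overlap, and the mean difference was 8.04 percentage points. With 2 sections against 2, the exact two-sided permutation test cannot go below 0.333, which is the value it gave. Neither depth nor the size factor enters this share, because both genes come from the same spots.

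The same held in each zone, with Mt2 shares between 5.16% and 8.53% in normal and between 12.3% and 17.3% in ischemic sections. In the ischemic sections the Mt2 share of the inner stripe was 12.3% and 13.2%, against 12.4% and 14.3% in the Aqp2-list zone, 14.1% and 16.5% in the cortex and 14.8% and 16.0% in the outer stripe. In each ischemic section the inner stripe interval lay below those of the cortex and the outer stripe.

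**Figure D4:**
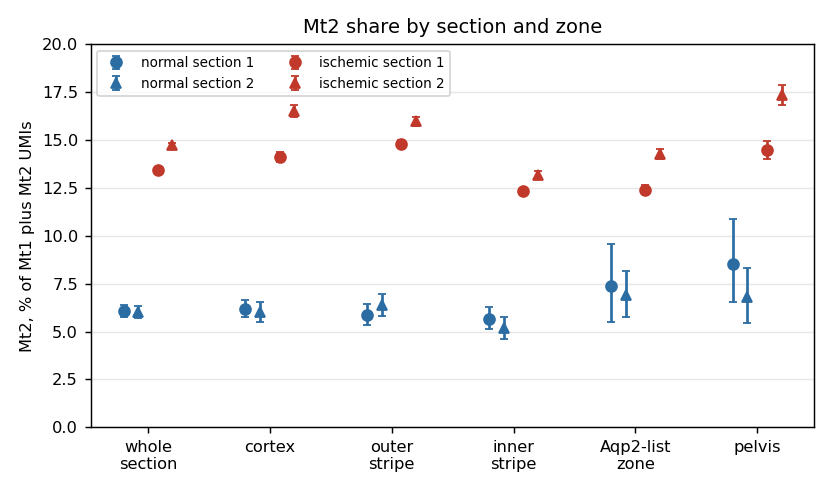
Mt2 as a percent of Mt1 plus Mt2 UMIs in each section, over the whole section and by zone, with 95% Clopper-Pearson intervals as bars. The normal sections (blue) lie between 5.16% and 8.53% and the ischemic sections (red) between 12.3% and 17.3%, with no overlap in any zone.

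Across spots the 2 genes varied together, as a description with no test, since spots of a section share a library. The Pearson correlation of log2 UMIs per 10000 plus 1 over spots with at least 500 UMIs was 0.47 and 0.45 without ischemia against 0.89 and 0.85 after it. Spot by spot, the normal value is limited by counts, at a mean of 0.607 and 0.548 Mt2 UMIs per spot. With counts pooled over each spot and its neighbours, it was 0.66 and 0.73 without ischemia against 0.96 and 0.94 after it. With spots thinned to 2000 UMIs, and those with fewer left out, it was 0.16 and 0.25 in normal sections, against 0.69 and 0.71 in ischemic ones. Thinned normal spots held a mean of 0.086 and 0.123 Mt2 UMIs, against 4.00 and 5.01 in ischemic ones. The thinned normal value is therefore limited by counts as well. Within single zones of the ischemic sections it was highest in the outer stripe, at 0.87 and 0.82. It was 0.62 and 0.61 in the cortex and 0.66 and 0.58 in the inner stripe. The Aqp2-list zone had 0.65 and 0.61, and the pelvis 0.75 and 0.58.

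High spots lay close together. The correlation of a spot with the pooled counts of its neighbours was 0.42 and 0.49 for Mt1 in normal sections, against 0.84 and 0.84 in ischemic ones. Of the 10% of spots with the highest Mt1, 50.6% and 54.0% lay in the inner stripe in normal sections, which held 14.2% and 12.8% of all spots compared. In ischemic sections 58.2% and 62.2% lay there, where 17.9% and 21.2% of all spots were. The cortex held 33.7% and 19.6% of these high spots without ischemia and none after it. In ischemic sections, Mt1 was higher away from the tissue edge, going from 8457 and 9666 CPM within 3 spot steps to 17191 and 23119 CPM at 10 to 15 steps. In normal sections it showed no such slope, at 517 and 853 CPM in the outer ring against 457 and 716 CPM inside. The share of inner stripe spots in the inner ring differed too, at 15.3% and 7.91% without ischemia against 37.3% and 53.4% after it. Distance from the tissue edge and zone therefore cannot be told apart here. In all 4 sections the outer ring also held spots of the Aqp2-list zone and the pelvis, so this distance is not depth below the kidney surface.

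The thick ascending limb genes Slc12a1, Umod, Cldn10 and Ptger3, which also define the inner stripe, tracked Mt1 across spots in all 4 sections. Their summed level correlated with Mt1 at 0.63 and 0.66 without ischemia, against 0.84 and 0.82 after it. Within inner stripe spots the values were 0.87 and 0.82 without ischemia, against 0.53 and 0.47 after it. Within the cortex they were 0.47 and 0.48, against 0.55 and 0.46. A list of 7 proximal tubule genes ran the other way, at -0.26 and -0.32 without ischemia, against -0.77 and -0.70 after it. Its summed level went from 3247 and 3288 CPM to 672 and 638 CPM, while the thick limb list went from 3785 and 4429 CPM to 2947 and 3021 CPM. Fewer cells and less RNA per cell cannot be told apart in these lists. The part of their changes in the rise of Mt1 and Mt2 was not tested.

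The genes most like Mt1 across spots were named from 9629 genes found in at least 5% of spots of every section, ranked by the lower correlation of the 2 sections. In normal sections they were Ppp1r1a, a protein phosphatase inhibitor (0.71), Wfdc15b (0.64), Umod, which codes for uromodulin (0.64), Egf, which codes for epidermal growth factor (0.64), and Kng2, a kininogen gene (0.59). In ischemic sections they were Umod (0.83), Lcn2 (0.82), Defb1, a defensin gene (0.80), Cd24a (0.80) and Mrps6 (0.76). Umod stood in both lists, whereas Lcn2 reached only 0.11 and Egf 0.13 in the condition where they were not among the 5. The value of Lcn2 is limited by counts, at 219 and 220 UMIs over the 2616 and 2682 spots of the normal sections.

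For Mt2 in ischemic sections the same 5 genes led, with Lcn2 at 0.77 and Umod at 0.74. In normal sections they were Ppp1r1a (0.39), Ckb, which codes for a creatine kinase (0.37), Wfdc15b (0.36), Umod (0.36) and Kcnj1, the ROMK potassium channel gene (0.35). These lower values stand beside the low Mt2 counts per spot.

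Mt1 did not follow Havcr1 across the ischemic sections. With spots ranked into quartile groups on Havcr1 of the spot and its neighbours, Mt1 stood at 28178 and 28731 CPM in the lowest group and at 8195 and 7565 CPM in the highest. Mt2 was lower there too, at 1405 and 1494 CPM against 3886 and 4355 CPM in the lowest. The lowest group held 106 and 95.1 CPM of Havcr1 and the highest 2559 and 2667 CPM. Havcr1 is known as a gene of injured proximal tubule cells.

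The direction depended on the zone. Within the cortex, Mt1 was higher in the group with the most Havcr1, at 5585 and 5258 CPM, than in the group with the least, at 3803 and 3702 CPM. Within the outer stripe it was lower, at 7682 and 6522 CPM against 14718 and 17264 CPM. Within the inner stripe it was lower as well, at 22355 and 25221 CPM against 30547 and 32050 CPM. Both ischemic sections had the same direction in each of these zones. Ranks and zones both pool neighbours, so spots near a zone border take in counts of the next zone. With neighbours left out, 61.2% and 62.0% of ischemic outer stripe spots kept their zone, and 58.0% and 59.6% of inner stripe spots. The part of border spots in these directions was not tested. Over whole sections the Mt2 share was 12.1% and 13.2% in the lowest group and 14.6% and 16.5% in the highest. Within the cortex the 2 ischemic sections differed in direction, at 14.9% in the lowest and 13.7% in the highest group of section 1, against 14.8% and 17.3% in section 2.

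**Figure D5:**
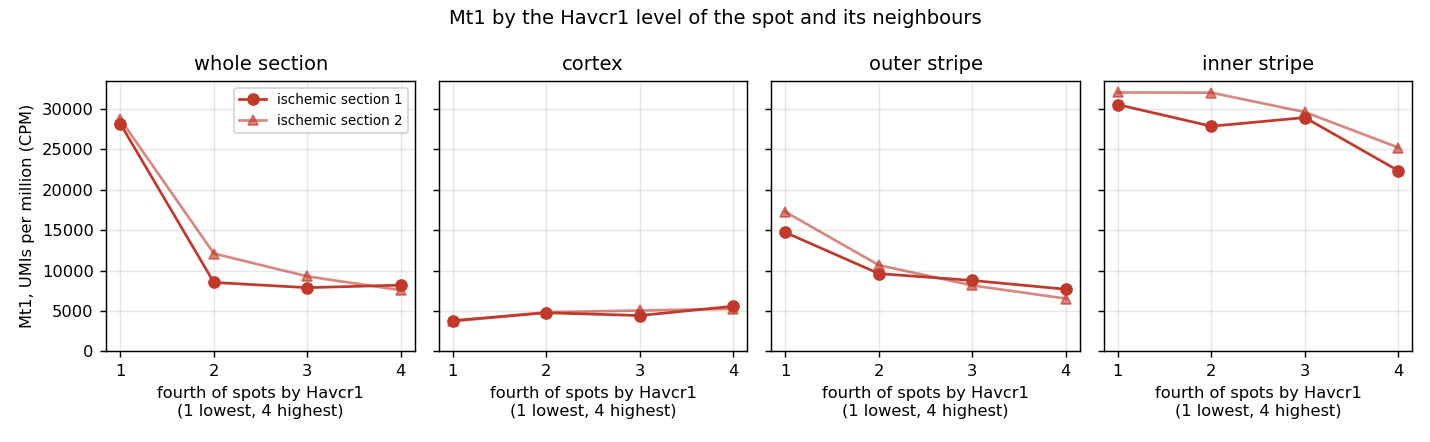
Mt1 in counts per 1000000 UMIs (CPM) in the 2 ischemic sections, for quartile groups of the spots ranked on Havcr1 of the spot and its neighbours, over the whole section and within the cortex, outer stripe and inner stripe. The highest group lies below the lowest over the whole section and in both stripes, and above it in the cortex, at 5585 and 5258 CPM against 3803 and 3702 CPM, and not every line moves one way throughout.

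Genes of the signals known to act on metallothioneins were followed in the same whole-section fit, in lists of pathway members. Median log2 fold changes are given beside 0.04 for all 15305 genes tested, and with library totals as the scale that median was 0.31. The counts of the main fit stand against the background of 31% called higher and 29.7% called lower. With library totals, 5750 of the 15305 genes were called higher and 2829 lower. Rose and fell counts on that scale were 10 and 5 for zinc, 3 and 5 for copper and 10 and 0 for STAT3. They were 9 and 0 for NRF2, 3 and 2 for glucocorticoids and 3 and 3 for hypoxia.

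In the zinc list, 9 of 21 tested genes rose, 7 fell and 5 did not pass, with a median of -0.03. Among importers, Slc39a1 rose by 1.71 (20.3 and 26.1 to 84.5 and 97.2 CPM), Slc39a6 by 1.5 and Slc39a14, known as an importer induced in inflammation, by 1.23. Slc39a8 fell by 2.12 (66.5 and 56.2 to 17.3 and 17.3 CPM) and Slc39a5 by 1.62. Slc30a1, the zinc exporter known as a target of MTF1 together with Mt1, did not follow it, and fell from 43.9 and 41.5 to 34.7 and 32.8 CPM (log2 fold change -0.62, SE 0.12, adjusted p = 0.0021 by edgeR). Mtf1 itself stood at 10.1 and 11.1 against 15.7 and 15.2 CPM (log2 fold change 0.27, SE 0.11, adjusted p = 0.056), short of the threshold.

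In the copper list, 2 of 10 tested genes rose and 6 fell, with a median of -0.59. Cp, which codes for the copper carrier ceruloplasmin, rose by 2.00 (13.5 and 17.9 to 75.3 and 75.3 CPM). The exporter Atp7b fell by 1.66 and Ccs, the copper chaperone of superoxide dismutase 1, by 1.56 (227 and 212 to 92.5 and 89.3 CPM). Slc31a1, the main copper importer, fell by 0.70.

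In the interleukin 6 and STAT3 list, 10 of 12 genes rose, 1 fell and 1 did not pass, with a median of 3.63. Lcn2 belongs to this list and is also an injury marker. Il6 had no UMI in the normal sections and 71 and 78 UMIs in the ischemic sections. The feedback inhibitor Socs3 rose by 4.73 (1.06 and 2.93 to 59.9 and 58.2 CPM), the oncostatin M receptor gene Osmr by 2.42, Stat3 by 1.5 and the fibrinogen gene Fgb by 5.57.

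The oxidative stress list held Nfe2l2, which codes for NRF2 itself, and targets of NRF2. In it 9 of 10 genes rose and none fell, with a median of 1.28, and Nfe2l2 rose by 0.88. The cystine importer Slc7a11 rose by 4.98, though at no more than 5.12 CPM. The heme oxygenase gene Hmox1 rose by 3.58 (16.6 and 13.7 to 225 and 220 CPM), the sulfiredoxin gene Srxn1 by 2.88 and the thioredoxin reductase gene Txnrd1 by 1.82.

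The glucocorticoid list was mixed, with 3 of 10 up, 3 down and a median of -0.09. Zbtb16 rose by 2.52, though at no more than 1.06 CPM, and Fkbp5, an inhibitor of the glucocorticoid receptor, by 1.00 (25.8 and 31.6 to 69.4 and 68.7 CPM). Dusp1 fell by 1.10 and Klf9 by 0.87. The receptor gene Nr3c1 stood at 17.5 and 24.5 against 21.8 and 24.7 CPM and did not pass. The hypoxia list was mixed as well, with 2 of 9 up, 4 down and a median of -0.20. Adm, which codes for adrenomedullin, rose by 2.36 and the glucose transporter gene Slc2a1 by 1.79, while Car9, a carbonic anhydrase gene, fell by 2.66 and Ndrg1 by 1.58.

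Markers of other cell types moved with the condition and are given beside these results. A list of 5 neutrophil genes went from 1.41 and 2.17 CPM to 177 and 178 CPM, and correlated with Mt1 across ischemic spots at 0.14 and 0.053. A list of 6 macrophage genes summed to 152 and 211 CPM without ischemia and 153 and 153 CPM after it. Red cell genes went the other way, from 8874 and 9027 CPM to 763 and 1614 CPM. Lower after ischemia were also T cell genes, from 13.8 and 28.1 CPM to 2.32 and 2.50 CPM, and urothelial genes, from 202 and 530 CPM to 35.2 and 64.5 CPM. Adipocyte genes went from 259.6 and 125 CPM over whole sections to 5.28 and 4.85 CPM. Smooth muscle genes were higher, at 291 and 314 CPM against 139.6 and 223 CPM. A list of 5 injured tubule genes went from 15.1 and 23.9 to 4720 and 5317 CPM and correlated with Mt1 across ischemic spots at 0.77 and 0.68. It holds both Lcn2 and Havcr1, of which the first ran with Mt1 and the second against it in whole ischemic sections. The part of each in the rise of Mt1 and Mt2 was not tested.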

How the data were processed

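The authors ran Space Ranger 1.3.0 on mm10, per the file headers and the submitters' processing notes, and deposited the resulting UMI counts by gene and spot, raw and without normalization. No source used here names the annotation release. Spots outside tissue were absent from the matrices. Counts were summed per section, or per zone of a section (20 spots or more), and tested by edgeR 4.0.16 in R 4.3.3. TMM factors, the filterByExpr filter and the quasi-likelihood test were used, with Benjamini-Hochberg adjusted p-values and a threshold of 0.05. DESeq2 1.42.0 was an alternative. A spot took the zone with the highest standardised mean of log2(CPM + 1) over its list, and pelvis needed at least 10 counts and a place in the top 5% of the section. Correlations and shares are descriptions, with no p from spots. The upper limit for a count of 0 was 3 counts, which covers counting error only. Sequences and starts come from RefSeq and gene positions from GENCODE vM21, both on GRCm38. Genes named were Mt1, Mt2, their family, members of the lists, those with the largest changes first, Havcr1, Lcn2 and the 5 genes most like each member. The members and lists were chosen with earlier results of these data known. The tests were checked on simulated counts.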

Additional observations from a re-analysis of the deposited data

Results flagged for a closer look

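The change with ischemia differed between zones by a test of the difference itself, and these values are repeated with no explanation. Against the cortex, the log2 change was larger in the outer stripe by 1.00 for Mt1, 1.01 for Mt2 and 1.04 for Mt3. In the inner stripe it was larger by 1.10 for Mt1 and 0.98 for Mt2 and smaller for Mt3, at -1.45. In the Aqp2-list zone it was larger by 2.00 for Mt1 and 1.5 for Mt2. Spots of that zone differed between the 2 conditions in Aqp2, Akr1b3, Slc14a2 and adipocyte genes. They also differed in the thick ascending limb sum, mostly Umod, relative to the inner stripe. The cortex, outer stripe, inner stripe and pelvis lists were also lower in their own zones after ischemia.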

How the results depend on the processing

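Both genes rose with ischemia under all 11 alternatives over whole sections and all 15 in each zone, DESeq2 included. The log2 fold change over whole sections ran from 3.8 to 4.19 for Mt1 and from 5.14 to 5.55 for Mt2. Of the 6 interactions, 77 of 78 values under alternatives kept their side of the threshold. The exception was Mt1 in the outer stripe, at 0.99 (adjusted p = 0.054 by edgeR) when condition and zone formed the groups of 1 model with no section block. Library totals as a scale within zones, and leaving out spots with over 100 CPM of adipocyte genes, were chosen after seeing the data.

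In normal sections, the difference of outer stripe and cortex changed sign, never past the threshold. For Mt1 it was -0.11 with library totals, -0.013 without adipocyte-rich spots, -0.065 with zones without neighbours and -0.058 without boundary spots, and -0.027 to 0.13 leaving out 1 section. For Mt2 it was -0.099, -0.012, -0.067 and -0.014 under the same settings, and -0.10 to 0.22 leaving out 1 section. The Aqp2-list zone against the cortex was 0.51 for Mt1 with library totals and 0.39 with the list without Cryab and Akr1b3, both now past the threshold, and -0.17 without boundary spots, and ran from -0.19 to 0.25 leaving out 1 section. For Mt2 it was 0.29 with no filter, 0.24 with zones without neighbours, 0.088 without boundary spots and 0.40 in the model without the block, and ran from 0.077 to 0.46 leaving out 1 section. The call of Mt2 was lost under each of these 4 settings and without normal section 2 or either ischemic section, 7 of 13 alternatives in all. The mean correlation of Mt1 and Mt2 over spots was 0.21 in normal and 0.70 in ischemic sections after thinning to 2000 UMIs, and 0.42 and 0.90 by Spearman. Low Mt2 counts per spot limit the normal values. The mean Mt2 share of the ischemic sections was 15.6% as a mean over spots. The causes were not tested.

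Normal and ischemic sections share the numbers 1 and 2, which mark no stated pairing. With the replicate number as a block, 10089 genes were called in place of 9279, Mt1 had a log2 fold change of 3.94 and Mt2 one of 5.29, and no call of either gene changed in any zone. The deviations of same-numbered sections correlated at 0.16 over 15305 genes. With library totals as the scale, 5750 genes were called higher and 2829 lower, against 4737 and 4542. Of 154 counts of list members under alternatives, 146 were within 1.5 times the main count. With 2 sections per condition, and low Mt2 counts per spot in normal sections, smaller differences between zones could be missed.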
